A study of Rattus norvegicus with 18 samples.

Results

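Pianp (Entrez gene 312711) encodes a membrane protein that the study's title describes under its other name, liver endothelial differentiation-associated protein-1, as a junctional product of liver sinusoidal endothelium. It was taken by its gene symbol in the array annotation, which gives it 1 probe set of the 11018 that carry a single gene symbol. RNA had been measured on 18 Affymetrix rat arrays in 4 groups. LSEC_0h (n = 5) held liver sinusoidal endothelial cells lysed straight after isolation, and LSEC_2h (n = 4) and LSEC_42h (n = 4) held the same cell type after 2 h and 42 h on collagen-coated dishes. LMEC_0h (n = 5) held uncultured endothelial cells of the lung microvasculature. All preparations came from enzymatic digestion, a density gradient and magnetic sorting, and the labels used here name neither strain, sex, age nor any treatment. The labels do not state how many animals stood behind the arrays, so each p-value reflects the spread among these arrays, which may be technical.

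In mouse and human, PIANP spans the membrane once and carries sialylated O-linked sugars outside the cell. These sugars let it bind PILRα, an inhibitory receptor of myeloid cells, and the protein is trimmed by proprotein convertases of the furin type and by gamma-secretase. In rodent brain, where the gene is best known, it binds the GABA-B receptor, as does its relative AJAP1, an adherens junction protein. Liver sinusoidal endothelium is fenestrated and lacks an ordinary basement membrane, and it is known to lose many of its specialised features in culture.

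Pianp was high in every fresh liver array and low in all others. On the deposited log2 scale, the LSEC_0h arrays, numbered 13 to 17 in the labels, read 10.14, 9.83, 9.53, 10.26 and 9.41. The LSEC_2h arrays 4 to 7 read 7.995, 7.767, 7.921 and 7.487. The LSEC_42h arrays 1, 2, 3 and 12 read 7.16, 7.18, 7.34 and 7.20. All 4 cultured arrays of the later time thus lay below all 4 of the earlier time, and both sets lay below every fresh array. The LMEC_0h arrays 18 to 22 read 6.77, 6.79, 6.67, 6.72 and 6.81, which were the lowest 5 of the 18 values. The group means were 9.83 ± 0.37 (SD, n = 5) in LSEC_0h, 7.79 ± 0.22 (SD, n = 4) in LSEC_2h, 7.22 ± 0.08 (SD, n = 4) in LSEC_42h and 6.75 ± 0.05 (SD, n = 5) in LMEC_0h. No groups overlapped.

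**Figure D1:**
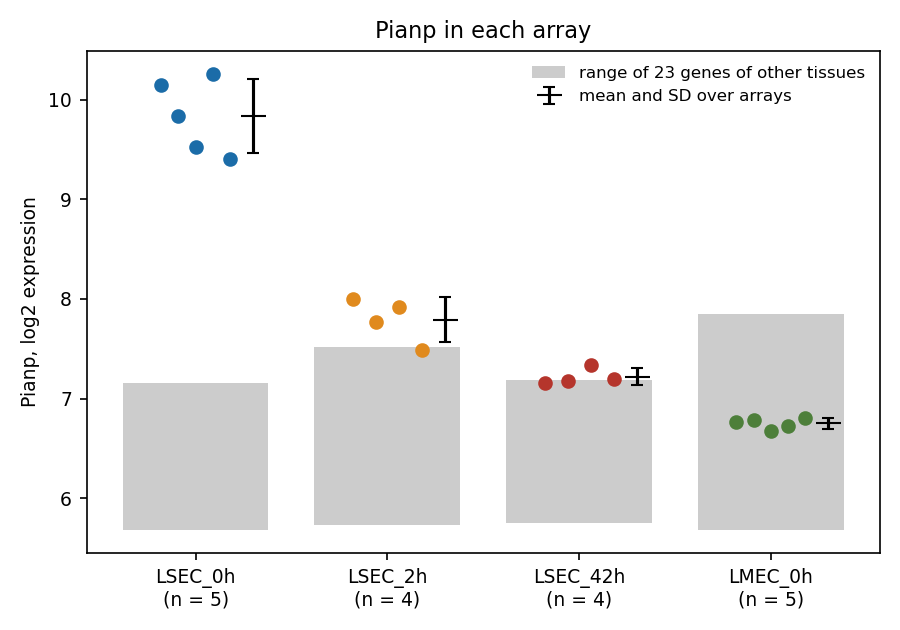
Pianp expression on the deposited log2 scale (vertical axis) in each array of the 4 groups, with the mean and SD beside the points. Grey boxes span the group means of 23 measured genes of unrelated tissues, and the 5 LMEC_0h points, between 6.67 and 6.81, lie inside their box while the 5 LSEC_0h points, from 9.41 to 10.26, lie far above theirs.

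Because the study reported this gene from these samples, its differences from LSEC_0h are given as a description without a p-value. The array reading of Pianp was 8.47-fold lower in LMEC_0h than in LSEC_0h (log2 difference −3.08, SE 0.14, 95% interval −3.37 to −2.79). The lung reading lay at the level of unexpressed genes, as given below, so this is a ratio of readings and may understate the ratio of RNA levels. Only 31 of the 11018 genes, or 0.281%, were lower by more in that comparison. After 2 h of culture Pianp was 4.12-fold lower than in fresh cells (log2 difference −2.04, SE 0.15, interval −2.35 to −1.73), and 57 genes were lower by more. After 42 h it was 6.13-fold lower (log2 difference −2.62, SE 0.15, interval −2.92 to −2.31), and 56 genes were lower by more. These 3 comparisons share the LSEC_0h arrays. In whole preparations, a smaller number of cells of a type and less RNA per cell cannot be told apart.

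The 3 comparisons that leave out the fresh liver arrays were tested. Pianp fell further between 2 h and 42 h, by 1.49-fold (log2 difference −0.57, SE 0.15, interval −0.90 to −0.25; limma, adjusted p = 0.00303 over all genes). With the array means of hepatocyte and macrophage markers as covariates this difference was −0.48 and was no longer called (adjusted p = 0.054). At 42 h its reading remained above that of lung (log2 difference 0.47, SE 0.15, interval 0.16 to 0.77; adjusted p = 0.0101). At 2 h it also stood above lung (log2 difference 1.04, SE 0.15, interval 0.73 to 1.35; adjusted p = 6e-06). No fold is given against lung in these comparisons, because the lung reading is not set apart from background. The two-sided exact permutation test over arrays gave p = 0.0286 for 42 h against 2 h, and p = 0.00794 for each cultured group against lung, in each case the smallest value that these group sizes allow. Adjusted over the 3 comparisons they were 0.0286 and 0.0119. Calls were common among all genes, at 72.1% for 42 h against 2 h, 61.8% for 42 h against lung and 73.7% for 2 h against lung.

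The lowest readings came close to those of genes that neither preparation should hold. A list of genes of retina, pancreas, testis, pituitary, muscle and skin had 23 measured members. Their group means ran from 5.68 to 7.15 in LSEC_0h, from 5.73 to 7.51 in LSEC_2h, from 5.75 to 7.19 in LSEC_42h and from 5.68 to 7.85 in LMEC_0h. Pianp exceeded all 23 in the 3 liver groups, at 42 h with 7.22 against 7.19 for the highest of them, and in lung it was exceeded by Lhb, Ins1 and Cela1. The lung reading of Pianp was therefore not set apart from the level of unexpressed genes, and no expression of Pianp in lung cells can be read from it. At 2 h, 18 of the 23 genes were called higher than in fresh liver cells, beside 41.4% of all genes, and none lower, with a median log2 difference of 0.21, while Pianp was lower. Against lung at 2 h, 17 of the 23 were called higher and 2 lower, beside 43% and 30.6% of all genes, with a median of 0.23. Against lung at 42 h, 8 were called higher and 4 lower, beside 39.9% and 22% of all genes, with a median of 0.09. Pianp was above lung by 1.04 and 0.47 in the same comparisons. Lhb was the highest of the 23 genes in every group, and in LMEC_0h the next was Ins1 at 6.92. A lung reading between Ins1 and Lhb lies inside the range but above all the other genes of the list.

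Most of the loss of Pianp had occurred by the first time point. The fall by 2 h made up 78.1% ± 5.6 (delta-method SE) of the fall by 42 h. The 42 h reading was close to the level of unexpressed genes, which limits how far the later fall could be seen. Among 593 other genes that were at least 2-fold lower at 42 h than in fresh cells, the median share of the fall reached by 2 h was 59.5%, with quartiles of 25.5% and 91.6%. Pianp lay inside those quartiles, and 36.8% of these genes had a larger share. With quantile normalization the share for Pianp was 71.2%.

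Few genes followed the group order of Pianp, and by definition all of them also had LSEC_0h above every other array. In 702 genes (6.37%) every LSEC_0h array lay above every other array. In 19 genes (0.172%) all 4 groups were separate and followed the order of Pianp, LSEC_0h over LSEC_2h over LSEC_42h over LMEC_0h. Between its lowest fresh liver array and its highest other array, Pianp had a gap of 1.41 on the log2 scale, or 2.66-fold. This was the widest gap of the 19 genes. Of all genes, 8 had a wider gap without following that order, named here after their values were seen. Maf, a transcription factor of sinusoidal endothelium, had a gap of 2.01, the amino acid transporter gene Slc43a2 1.90 and the matrix glycoprotein gene Emilin1 1.73. Ehd3, a gene of endocytic recycling, had 1.66, and Cyp26a1, which encodes an enzyme of retinoic acid breakdown, had 1.63. Sgpp1, a sphingosine phosphate phosphatase gene, had 1.54, the scavenging chemokine receptor gene Ackr4 1.52 and Acsf2 1.51. Next after Pianp among genes of its order came Gata4, a transcription factor of sinusoidal endothelium, at 1.23. With 4 arrays high in markers of other cells left out (LSEC_0h 15, LSEC_2h 6, LMEC_0h 20 and 22), Pianp kept its place in an order then shown by 46 genes. Its gap was again 1.41, and 14 genes had a wider one.

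**Figure D2:**
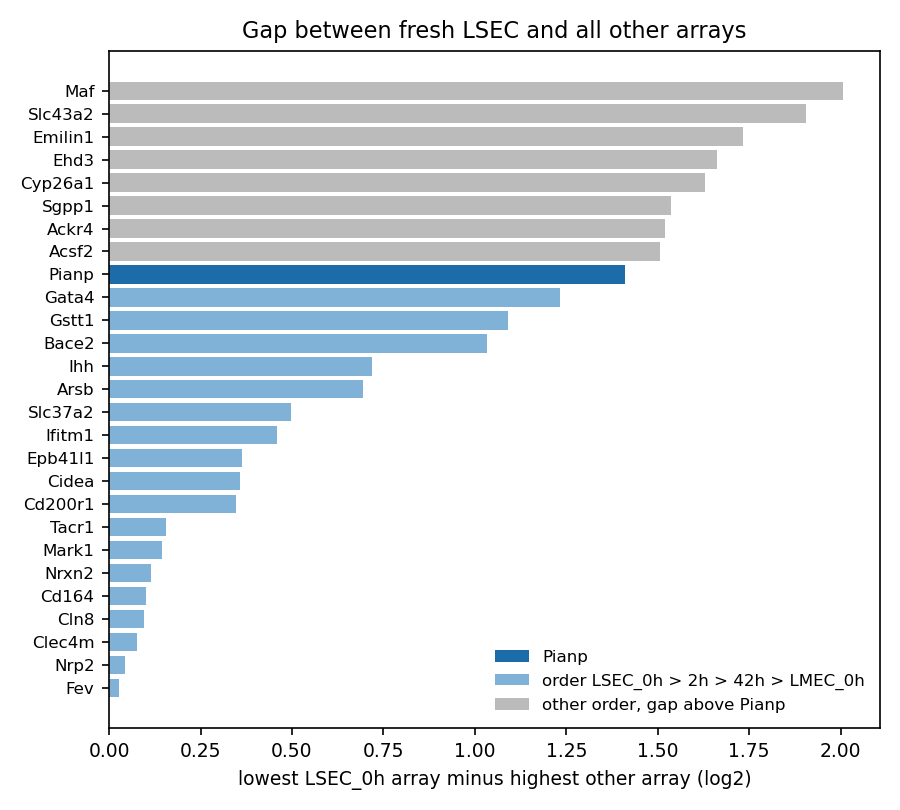
Bars show, for each named gene, the lowest LSEC_0h array minus the highest of the other 13 arrays, in log2 units. Pianp, at 1.41, has the widest bar among the genes that follow its group order (blue), below 8 genes of another order (grey), which run up to 2.01 for Maf.

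Fresh liver arrays differed more among themselves in Pianp than in most genes. Its SD was 0.37 in LSEC_0h, against a median of 0.08 over all genes, and 3.59% of genes had a larger one. All genes include those at the level of unexpressed genes, and the spread of genes at the level of Pianp was not compared. In LSEC_2h its SD of 0.22 compared with a median of 0.12. In LSEC_42h and LMEC_0h its SDs of 0.08 and 0.05 lay below the medians of 0.10 and 0.13. The spread of Pianp was therefore widest where its level was highest.

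The preparations differed in markers of other cells. The 8 measured macrophage markers averaged 8.18 to 10.91 per array in LSEC_0h, 7.11 to 7.68 in LSEC_2h, 6.56 to 6.91 in LSEC_42h and 7.14 to 8.48 in LMEC_0h. In LSEC_0h the lowest readings of Pianp were in arrays 17 and 15, and array 17 had the lowest and array 15 the highest macrophage mean. The 18 hepatocyte markers averaged 7.93 to 9.30, 6.87 to 9.80, 6.29 to 6.43 and 6.60 to 6.74 in the same order of groups. The 12 lung epithelial markers averaged 9.35 to 11.09 in LMEC_0h and at most 6.66 elsewhere. Mesenchymal markers (14 measured) reached 7.92 to 8.79 in LMEC_0h and at most 7.92 in the liver groups. The 15 lymphocyte markers spanned 7.18 to 7.62 in LSEC_2h and at most 6.62 in the other liver groups. The 16 neuron and glia markers averaged 6.09 to 6.56 over all arrays, at the level of the genes of unrelated tissues. Among them Tubb3 read above that level in culture, at 7.97 in LSEC_2h and 7.75 in LSEC_42h. At 2 h 14 of the 16 were called higher and 1 lower than in LSEC_0h, beside 41.4% and 32.7% of all genes. Pan-endothelial markers (14 measured) averaged between 9.80 and 11.03 in all groups. Of these, 9 were called lower and 2 higher at 2 h, beside 32.7% and 41.4% of all genes. The median log2 difference of the 14 was −1.03. At 42 h 11 were lower and 1 higher, beside 20.8% and 29.7% of all genes, with a median of −0.78. With the hepatocyte and macrophage means as covariates, Pianp differed from LSEC_0h by −2.97 in LMEC_0h, −2.02 in LSEC_2h and −2.50 in LSEC_42h. With the same 4 arrays left out, the differences were −3.15, −2.16 and −2.69. The part of lymphocyte, mesenchymal and lung epithelial cells was not tested.

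Array controls also moved with culture. The 24 poly-A control probe sets averaged 5.66 to 5.74 per array in both fresh groups and 7.62 to 8.37 in both cultured groups. The 3′ minus 5′ reading of beta-actin, a measure of RNA length, was 0.91 to 1.34 in the fresh and 1.63 to 1.89 in the cultured groups. Culture and these handling differences cannot be told apart for any gene compared between fresh and cultured cells, Pianp included. Between the fresh groups the actin readings overlapped, and the poly-A controls differed slightly, at 5.72 to 5.74 in LSEC_0h and 5.66 to 5.68 in LMEC_0h.

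Most measured sinusoidal markers and factors were lower where Pianp was lower, and at both culture times so were most pan-endothelial markers, as given above. All 16 measured members were called lower in LMEC_0h than in LSEC_0h, where 27.7% of all genes were called lower and 19.8% higher. The list was made of known markers of liver sinusoidal endothelium, so its lower readings in lung follow largely from that choice. In LSEC_2h 12 were lower and 1 higher, beside 32.7% and 41.4% of all genes. In LSEC_42h 14 were lower and none higher, beside 20.8% and 29.7% of all genes. From 2 h to 42 h, 11 fell and 2 rose, beside 38.9% and 33.1%. Their median log2 differences from LSEC_0h were −3.15 in lung, −1.17 at 2 h and −2.03 at 42 h, compared with −0.04, 0.08 and 0.05 over all genes. Pianp, at −3.08, −2.04 and −2.62, was near that median in lung and lower than it at both culture times.

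The genes whose profile most resembled Pianp were found by the root mean square difference over the 18 arrays, each gene centred on its own mean. The nearest was Gstt1, a glutathione S-transferase, at 0.24, followed by Maf at 0.28, Slc43a2 at 0.31 and Lmo3, a transcription cofactor, at 0.31. The lysosomal sulfatase gene Arsb and the aspartyl protease gene Bace2 were at 0.35. Arhgap45, Emilin1 and Hspg2, which encodes the basement membrane protein perlecan, were at 0.36, and the receptor gene Flt4 at 0.37. Over all genes the median distance was 1.27. In LMEC_0h all 10 had group means inside the range of the unexpressed genes, as Pianp did. Only Maf and Lmo3 read below Ins1, at 6.92 the second highest of the unexpressed genes. The others lay between Ins1 and Lhb, so their reading does not show that lung cells lacked them. The 10 genes were chosen for their likeness, so their levels carry no test. Gstt1 had group means of 10.04, 8.47, 7.76 and 7.12 in LSEC_0h, LSEC_2h, LSEC_42h and LMEC_0h, and Bace2 had 10.26, 8.76, 7.64 and 6.93. Maf, at 9.77, 7.30, 6.91 and 6.33, had a larger early fall than Pianp. Flt4 departed from the order, with 8.25 at 2 h and 8.52 at 42 h. Maf, Lmo3 and Flt4 were on the list of sinusoidal markers. With each gene scaled to unit SD, 6 of the 10 were again among the nearest.

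**Figure D3:**
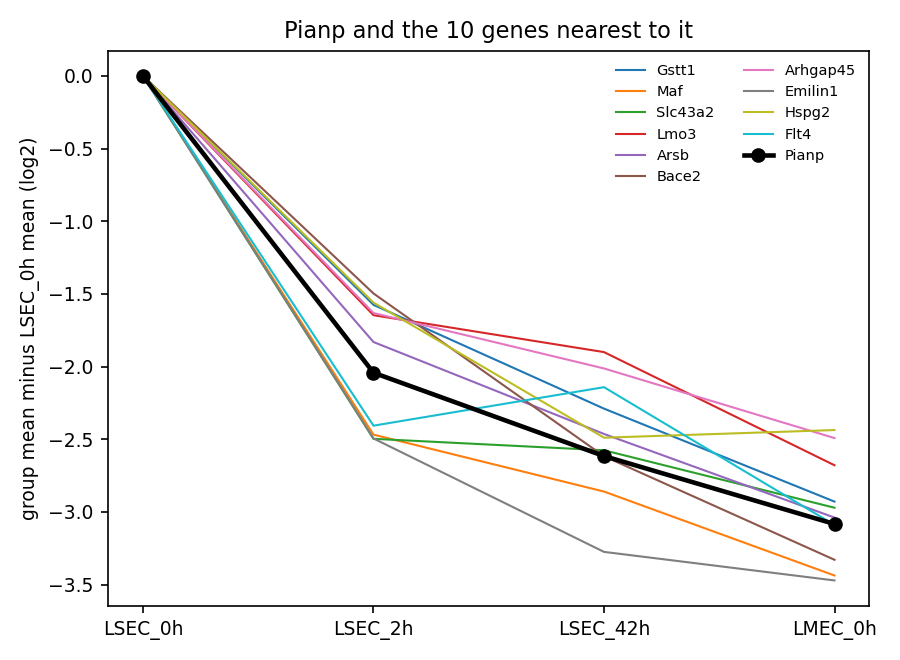
Lines join the group means of Pianp (black) and its 10 nearest genes, each as a log2 difference from its own LSEC_0h mean. Pianp passes from −2.04 at 2 h and −2.62 at 42 h to −3.08 in LMEC_0h, within the span of the 10 lines.

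Genes of known partners and processing enzymes, and of wider families of proteases, sugar enzymes and junction proteins, were described from 7 lists with 65 measured members. Whether each listed member acts on or with Pianp was not tested. In LMEC_0h against LSEC_0h 19 were called higher and 20 lower, or 29.2% and 30.8%, beside 19.8% and 27.7% of all genes. At 2 h 17 were higher and 32 lower than in fresh cells, and at 42 h 7 were higher and 32 lower. The share lower was 49.2% at both times, beside 32.7% of all genes at 2 h and 20.8% at 42 h. All genes include those at the level of unexpressed genes, and 18 of the 23 unexpressed genes were called higher at 2 h. With the filter on the array median described below, 36.1% of all calls at 2 h were higher, in place of 55.9%. At 42 h it was 55.7% in place of 58.8%. Whether the listed genes were lower more often than other expressed genes was not tested. Their median log2 differences were −0.02, −0.30 and −0.34. With the 4 arrays named above left out, 32, 51 and 40 of the 65 were called, beside 4556, 8112 and 5504 of all 11018 genes.

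Of the PILR group 5 of 10 listed genes were measured, and Pilra, Pilrb and Cd99 were not analysed here. Npdc1, which encodes another ligand of PILRα in mouse and human, had array ranges of 9.84 to 9.93 in LSEC_0h, 8.96 to 9.01 in LSEC_2h, 9.11 to 9.37 in LSEC_42h and 10.63 to 11.02 in LMEC_0h. It was lower in culture and highest in lung. From 2 h to 42 h it rose by 0.24 on the log2 scale (adjusted p = 0.0235), a call lost under both other normalizations and without LSEC_42h array 12, while Pianp fell by 0.57. It was 1.94-fold higher in LMEC_0h (adjusted p = 2e-08), 1.88-fold lower at 2 h (adjusted p = 6.79e-08) and 1.59-fold lower at 42 h (adjusted p = 4.51e-06). Colec12, a scavenger receptor gene whose human product also binds PILRα, was 2.06-fold lower at 2 h (adjusted p = 0.00169) and 2.56-fold lower at 42 h (adjusted p = 0.000325). It was not called between the organs (adjusted p = 0.952). Tyrobp, which encodes the adaptor of the activating receptor PILRβ in myeloid cells, was 2.51-fold lower at 42 h (adjusted p = 0.0278). At 42 h 7 of the 8 macrophage markers were also lower, beside 20.8% of all genes. The call of Tyrobp was lost without LSEC_42h array 1 (adjusted p = 0.062) or 12 (adjusted p = 0.0834). It was also lost without LSEC_0h array 13 (adjusted p = 0.0573) or 15 (adjusted p = 0.0775). Ptpn6, the phosphatase gene acting below PILRα, was not called in these 3 comparisons, and Ptpn11 was called higher at 42 h only (log2 difference 0.28, adjusted p = 0.00497). The group means of both lay in the range of unexpressed genes in all groups. In lung and in fresh liver only Lhb of those genes lay above the mean of Ptpn6, which was 7.63 in lung. The highest Ptpn6 array lay above the range in LSEC_0h, at 8.05, and also in LMEC_0h. Its readings therefore do not show that these preparations lacked Ptpn6.

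Of the GABA-B group 4 of 8 genes were measured, and Ajap1 was not analysed here. Gabbr1, the receptor subunit that binds such ligands, was lower in LMEC_0h (log2 difference −0.37, adjusted p = 0.000397) and at 42 h (log2 difference −0.44, adjusted p = 0.000114), and it was not called at 2 h. Its mean was 7.26 in LSEC_0h and 7.27 in LSEC_2h, the latter inside the range of unexpressed genes only because Lhb read 7.51 there. The readings of Gabbr1 at 42 h and in lung also lay in that range. App, whose product binds the same subunit, ranged from 10.16 to 11.09 in LSEC_0h, 9.51 to 10.27 in LSEC_2h, 8.85 to 9.28 in LSEC_42h and 10.02 to 10.96 in LMEC_0h. It was 1.75-fold lower at 2 h (adjusted p = 0.00229) and 3.03-fold lower at 42 h (adjusted p = 6.22e-06). Lung and fresh liver overlapped for App, in contrast to Pianp. Gabbr2 and Kctd16, which encode the other receptor subunit and an auxiliary protein, read at the level of unexpressed genes.

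Convertase genes fell in culture in part. Furin was 1.46-fold lower at 2 h (adjusted p = 9.26e-05) and 1.57-fold lower at 42 h (adjusted p = 3.37e-05), and was not called between the organs (adjusted p = 0.385). Pcsk7 was 1.65-fold lower at 2 h, 1.64-fold lower at 42 h and 1.21-fold lower in lung. Mbtps1, which encodes the site-1 protease, was 2.99-fold lower at 2 h (adjusted p = 1.72e-10) and 1.57-fold lower at 42 h. Pcsk5, at group means of 6.46 to 6.82, and Pcsk6, at 5.95 to 6.66, read within the range of the unexpressed genes throughout, so no fold is given for them. Of the 7 measured convertases 3 were called higher and 3 lower at 2 h, beside 41.4% and 32.7% of all genes. At 42 h 4 were lower and none higher, beside 20.8% and 29.7%. The 3 called higher at 2 h, Pcsk2, Pcsk4 and Pcsk5, all read at the level of unexpressed genes, and none of them was among the 3 convertases that passed a filter on the array median.

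All 4 measured gamma-secretase subunit genes were called lower at 2 h, beside 32.7% of all genes. From 2 h to 42 h 3 of the 4 rose, beside 33.1% of all genes. Psen2, a catalytic subunit, had array ranges of 8.78 to 9.30 in LSEC_0h, 7.87 to 8.09 in LSEC_2h, 7.83 to 8.22 in LSEC_42h and 7.09 to 7.33 in LMEC_0h. It was, like Pianp, lowest in lung, where it was lower than in fresh liver (log2 difference −1.81, adjusted p = 2.46e-11). Its lung mean of 7.20 lay inside the range of unexpressed genes, of which only Lhb was higher. The 2 culture times of Psen2 overlapped. It was 1.97-fold lower at 2 h and 2.01-fold lower at 42 h. Ncstn, the substrate-binding subunit, was 3.08-fold lower at 2 h (adjusted p = 1.14e-09) and 1.76-fold lower at 42 h. Psenen was 1.63-fold and Aph1a 1.31-fold lower at 2 h.

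Proteases that cut membrane proteins outside the cell, and their inhibitors, had 13 measured members. In LMEC_0h 6 were higher and 5 lower, beside 19.8% and 27.7% of all genes. At 2 h 6 were higher and 4 lower, beside 41.4% and 32.7%. At 42 h 1 was higher and 5 lower, beside 29.7% and 20.8%. Mmp2, which encodes a gelatinase, ranged from 6.30 to 6.56 in LSEC_0h, at the level of unexpressed genes, and from 8.82 to 9.64 in LMEC_0h (log2 difference 2.83, adjusted p = 1.99e-10). Mmp14, the gene of a membrane-bound protease, was 3.07-fold lower in lung, 3.30-fold lower at 2 h and 2.03-fold lower at 42 h. The inhibitor gene Timp1 was 4.05-fold higher at 2 h and 1.96-fold higher in lung. Timp2, another inhibitor gene, was higher in lung by 1.79 on the log2 scale (adjusted p = 5.87e-07) and was not called in culture. In LMEC_0h the mesenchymal markers given above were also high, and their part in these differences was not tested.

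**Figure D4:**
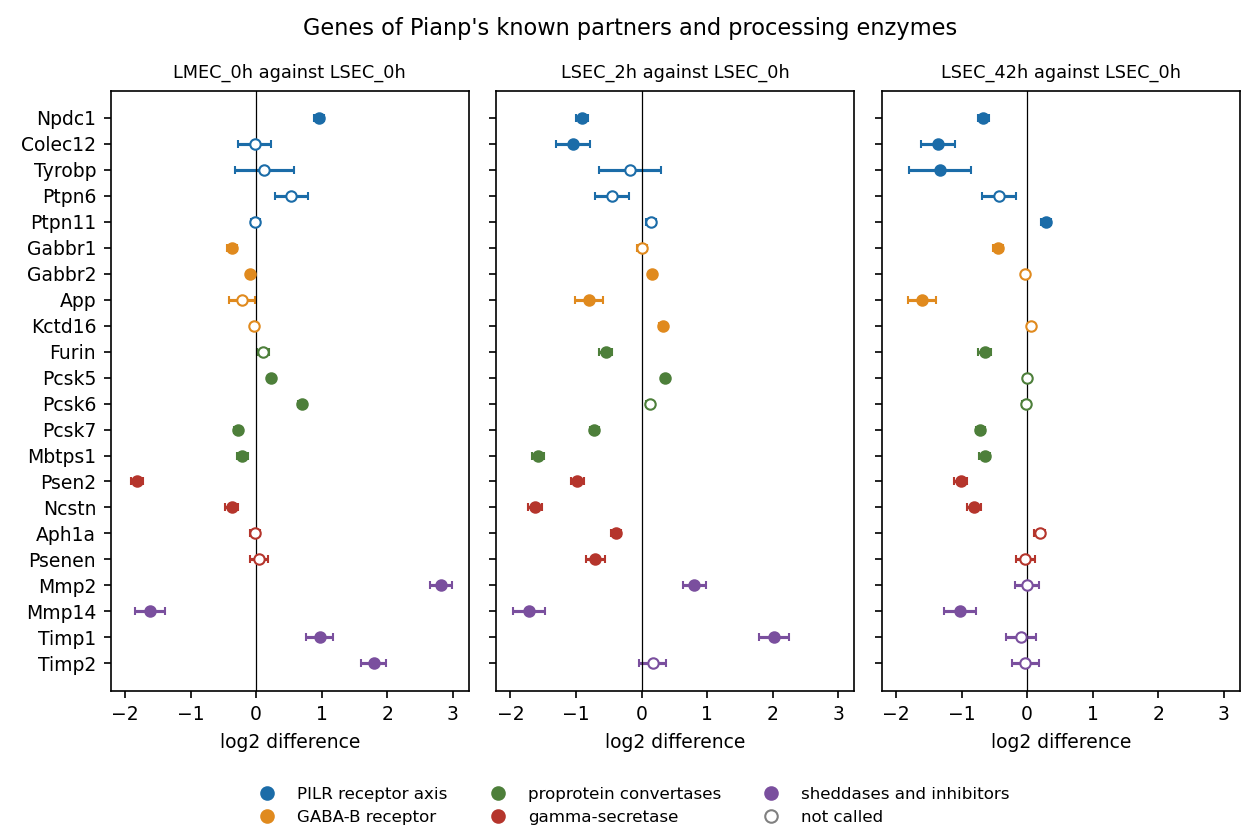
Points show the log2 difference from LSEC_0h (horizontal axis), with bars of 1 SE, in 3 panels for LMEC_0h, LSEC_2h and LSEC_42h. The genes are named members of the PILR and GABA-B groups, convertases, gamma-secretase, and metalloproteases with their inhibitors. Filled points passed an adjusted p of 0.05, and the 4 gamma-secretase genes at 2 h all lie to the left of 0.

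O-glycan enzymes had 14 measured members. In lung 4 were higher and 4 lower, beside 19.8% and 27.7% of all genes. At 2 h 3 were higher and 7 lower, beside 41.4% and 32.7%. At 42 h 4 were higher and 5 lower, beside 29.7% and 20.8%. St3gal2, a sialyltransferase gene of O-linked sugars, was 1.91-fold higher in lung, 3.45-fold lower at 2 h and 1.93-fold higher at 42 h, with a 2 h reading inside the range of unexpressed genes. St3gal4 was lower in all 3 comparisons, by 2.12-fold, 1.64-fold and 2.95-fold. Galnt2 and Galnt14 encode enzymes that start these sugars. Galnt2 was 1.59-fold lower in lung, 2.48-fold lower at 2 h and 1.58-fold lower at 42 h. Galnt14 rose by 1.64 on the log2 scale at 42 h, from a fresh reading at the level of unexpressed genes.

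Adherens and tight junction genes had 18 measured members. In LMEC_0h 6 were higher and 5 lower than in LSEC_0h, beside 19.8% and 27.7% of all genes. At 2 h 3 were higher and 11 lower, beside 41.4% and 32.7%, and at 42 h 1 was higher and 11 lower, beside 29.7% and 20.8%. Cdh5, the endothelial cadherin gene, was not called between the organs (adjusted p = 0.109) and was 2.44-fold lower at 2 h. Jam2 had array ranges of 10.33 to 10.80 in LSEC_0h, 8.92 to 9.57 in LSEC_2h, 6.97 to 7.99 in LSEC_42h and 9.47 to 10.29 in LMEC_0h. It fell by 2.53-fold at 2 h and by 8.42-fold at 42 h, more than Pianp at the later time. In lung it was 1.59-fold lower (adjusted p = 0.00903), with a mean of 9.97. That call was lost with the 4 arrays high in markers of other cells left out. Jam3 was lower in lung (log2 difference −1.77, adjusted p = 2.51e-07) and was not called in culture. Its lung mean of 7.15 lay inside the range of unexpressed genes, of which only Lhb was higher. Jup, the plakoglobin gene, was 2.16-fold higher in lung, 3.25-fold lower at 2 h and 2.40-fold lower at 42 h. Cdh1, the epithelial cadherin gene, was lower in culture, with log2 differences of −1.74 at 2 h and −2.196 at 42 h and cultured readings inside the range of unexpressed genes, and it also stood on the list of lung epithelial markers.

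The chromosomal neighbours of Pianp differed in mixed directions. In RefSeq's gene order for the rat assembly GRCr8, the 5 measured genes on one side were Gpr162, Cd4, Ptms, Mlf2 and Cops7a, and on the other Zfp384, Ing4, Acrbp, Chd4 and Iffo1. In LMEC_0h 2 of the 10 were called lower and 2 higher, beside 27.7% and 19.8% of all genes. At 2 h 5 were lower and 2 higher, beside 32.7% and 41.4%, and Gpr162, one of those higher, was not called with quantile normalization. At 42 h 6 were lower and 2 higher, beside 20.8% and 29.7%. The largest fall at 2 h was that of Mlf2, by 3.14-fold, and the largest at 42 h that of Ptms, by 2.14-fold. Mlf2 was 1.23-fold higher in lung, a call lost without LSEC_0h array 15 (adjusted p = 0.0584). Zfp384 and Iffo1 were lower in all 3 comparisons as Pianp was, Zfp384 by 1.53-fold in lung, 1.80-fold at 2 h and 1.49-fold at 42 h. Iffo1, Cd4, Gpr162 and Acrbp read in the range of unexpressed genes outside fresh liver, and the last 2 also in it, so no fold is given for them. In lung, Iffo1 at 7.30 was above all of the unexpressed genes but Lhb.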

How the data were processed

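The authors deposited 1 table of log2 expression values for 18 arrays, from biotin-labelled cRNA per the labels' protocols. How they corrected background, normalized and summarised probes is not stated in those labels. Array medians ran from 7.10 to 7.19, and values from 5.11 to 13.69. Of 11484 probe sets, 57 array controls and 409 without a gene symbol were left out, and 11018 were tested. Gene symbols came from the platform annotation. The values were used as deposited. limma 3.58.1 (R 4.3.3) fitted 1 mean per group over all 18 arrays, with an intensity trend and Benjamini-Hochberg adjustment over all genes, and genes were called where adjusted p was below 0.05. Fold changes are 2 to the power of the log2 difference. A number of arrays this small limits the precision, and no array gives the depth of a read count. The fit was tested on simulated data. Of each list of partners, enzymes or junction genes, the 4 called members with the largest differences from LSEC_0h were named. Members with a known role next to Pianp were named besides, and Cdh5 was named after its values were seen. The 10 nearest genes and 5 neighbours on each side were also named. The gene, lists and tests were chosen with earlier results of these data known. Alternatives covered normalization, filtering, the groups fitted, the variance trend, array weights, unnamed probe sets, covariates and each array left out.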

Additional observations from a re-analysis of the deposited data

Results flagged for a closer look

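In 9 of 208 groups of 4 or 5 arrays, over the 52 genes named, 1 array stood apart from the rest of its group by Dixon's criterion, which chance reaches in about 1 in 20 groups. No group of Pianp did. In LSEC_2h, array 7 read 8.357 for Tyrobp against 9.164 to 9.329 in the others, 7.953 for Furin against 8.077 to 8.079, and 7.873 for Psen2 against 8.07 to 8.093. Array 7 was also the lowest of its group for Pianp. In LSEC_2h, array 6 read 11.16 for Timp1 against 11.37 to 11.41. In LSEC_0h, array 15 read 9.621 for Slc43a2 against 10.05 to 10.12, and 10.94 for Emilin1 against 11.34 to 11.44. Array 17 read 8.906 for St3gal2 against 8.606 to 8.671. In LMEC_0h, array 22 read 9.349 for Mlf2 against 9.662 to 9.762. In LSEC_42h, array 3 read 7.903 for Chd4 against 7.748 to 7.754.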

How the results depend on the processing

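Pianp kept its direction in all 6 comparisons under every alternative run. With 1 array left out, its log2 difference ran from −3.19 to −2.98 for LMEC_0h against LSEC_0h, −2.15 to −1.94 for LSEC_2h and −2.72 to −2.51 for LSEC_42h against LSEC_0h. It ran from −0.68 to −0.51 for 42 h against 2 h, 0.43 to 0.49 for 42 h against lung and 0.97 to 1.14 for 2 h against lung. Over all alternatives the adjusted p (limma) ran from 0.000618 to 0.054 for 42 h against 2 h, 0.000108 to 0.0323 for 42 h against lung and 2.09e-06 to 0.000438 for 2 h against lung. Only the hepatocyte and macrophage covariates ended a call, that of 42 h against 2 h (log2 difference −0.48, adjusted p = 0.054), and the cause was not tested. The share of the fall reached by 2 h was 74.2% to 80.7% with 1 array left out and 71.2% with quantile normalization, for which the gap of Pianp was 1.17 with 17 genes wider. Leaving out 1 array gave 19 to 32 genes in its order and 8 to 14 with a wider gap. Of the 10 nearest genes, 6 were shared at unit SD and 7 to 10 with 1 array left out. A filter that asked for 4 or more arrays over the array's median left 6763 genes to test and called 5083 in place of 8158 for 2 h against fresh liver, 4936 in place of 7939 for 42 h against 2 h and 4923 in place of 8116 for 2 h against lung. With that filter the share of calls that were higher was 36.1% in place of 55.9%, 64.8% in place of 46% and 40.4% in place of 58.4%. Leaving out 1 array called 4798 to 5310 genes for lung against fresh liver, 7781 to 8241 and 5050 to 5679 for 2 h and 42 h against fresh liver, 7518 to 8072 for 42 h against 2 h, 6353 to 6927 for 42 h against lung and 7828 to 8230 for 2 h against lung. The list members called were then 35 to 40, 49 to 51, 35 to 41, 39 to 46, 45 to 48 and 49 to 52. Centring arrays on their medians moved the median of all genes at 2 h to 0.14. Of 164 comparisons of the other named genes, 125 kept their call throughout and 39 did not. Gabbr2 at 2 h reversed with quantile normalization, to −0.0397. Mbtps1, Ncstn and Jam2 in lung lost their calls with the 4 arrays left out, as chosen after seeing the data. No paired analysis was run, because the labels used here do not state which arrays, if any, came from the same animal or preparation. The number of arrays, and levels near those of unexpressed genes, limit what the low readings of Pianp can show.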
